A study of Mus musculus with 8 samples.

Results

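The 10 genes described here encode ATF4, CHOP and other regulators of the integrated stress response. They are Atf4, Atf5, Ddit3, Cebpb, Trib3, Ppp1r15a, Eif4ebp1, Chac1, Nupr1 and Stc2, chosen by symbol from the 14126 genes of the deposited table, and all 10 were measured. Pancreatic islets, the clusters of endocrine cells that secrete insulin, glucagon and other hormones, were isolated from NOD/ShiLtJ mice at the age of 7 weeks, a strain prone to autoimmune diabetes, and profiled by bulk RNA sequencing. The 4 libraries labelled WT came from IRE1α fl/fl mice, in which the gene Ern1 carries sites for the Cre recombinase. The 4 libraries labelled KO came from IRE1αβ-/- mice, described as lacking the endoplasmic reticulum (ER) stress sensor IRE1α in beta cells. Tamoxifen at 10 mg/ml, recorded as the agent that induces Cre activity, was injected on 5 consecutive days and is listed for both groups. The promoter that drives Cre is not given in the labels. The question was how islet transcripts at this age differ with loss of IRE1α from beta cells.

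The integrated stress response is a translational switch. Kinases that sense ER stress, amino acid shortage, double-stranded RNA or haem shortage phosphorylate the initiation factor eIF2α, which lowers protein synthesis in general while a few messenger RNAs, Atf4 and Atf5 among them, are translated more. The ER arm of this response, run by the kinase PERK, acts in parallel with IRE1α and is important in beta cells, which make large amounts of proinsulin. ATF4 and CHOP, the product of Ddit3, are basic leucine zipper (bZIP) transcription factors that pair with C/EBP proteins such as that of Cebpb. Trib3, Ppp1r15a, Chac1, Nupr1, Stc2 and Eif4ebp1 are genes induced through them, and several feed back on the response. Because ATF4 is controlled mainly by translation, the level of its messenger RNA need not follow the level of the protein.

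ATF4, paired with a C/EBP protein, binds the C/EBP-ATF response element (CARE). RefSeq windows of 250 bases before the gene start (GRCm38.p6) were found for 9 of the 10 genes, the exception being Eif4ebp1. They were searched on both strands for CARE (TTGCATCA), the cyclic AMP response element CRE (TGACGTCA) and the UPRE and ERSE elements of the IRE1α and ATF6 branches (TGACGTGG, and the longer ERSE with its free bases). CARE was present before Chac1 and Nupr1, 193 and 110 bases upstream, against 0.791% of all 32851 windows. CRE was present before Ppp1r15a, 12 bases upstream, against 1.55% of windows. UPRE and ERSE, found in 0.563% and 0.113% of windows, had no match in the 9 genes' windows. The AP-1 element (TGANTCA, 6.75% of windows) was added after the windows had been seen, and matched before Ddit3, 242 bases upstream. A form of CARE with 1 free base (TTNCATCA, 3.45% of windows, which contains CARE) matched the same 2 genes. A match describes letters in a window and is not evidence of binding.

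The 30-base stretches that hold these matches are shown 5′ to 3′ on each gene's strand, with the match in capitals, to show every match found before the 9 genes. The stretches lie at chr2:119351038-119351067 (plus strand, Chac1), chr7:126625562-126625591 (minus strand, Nupr1), chr7:45526269-45526298 (minus strand, Ppp1r15a) and chr10:127290543-127290572 (plus strand, Ddit3). The Nupr1 stretch falls within an annotated exon of a longer Nupr1 transcript in GENCODE M21. The 250-base windows of Ppp1r15a and Ddit3 also held 112 and 181 annotated exon bases of any gene. Whether their stretches lie within these exons was not determined.
Chac1: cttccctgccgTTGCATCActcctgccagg
Nupr1: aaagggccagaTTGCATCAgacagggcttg
Ppp1r15a: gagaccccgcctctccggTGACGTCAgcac
Ddit3: cgcgcgcaTGACTCActcacctcctccgcg

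Trib3 and Stc2 are the genes that were higher in libraries labelled KO below, so their whole 250-base windows are given, at chr2:152344061-152344310 and chr11:31370062-31370311, both on the minus strand. No letters are in capitals, because none of the elements named above matched in either window.
Trib3: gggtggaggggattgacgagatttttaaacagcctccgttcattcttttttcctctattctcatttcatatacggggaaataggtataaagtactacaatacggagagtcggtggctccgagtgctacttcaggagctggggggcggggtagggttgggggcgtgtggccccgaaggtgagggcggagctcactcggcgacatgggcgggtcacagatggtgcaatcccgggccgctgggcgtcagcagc
Stc2: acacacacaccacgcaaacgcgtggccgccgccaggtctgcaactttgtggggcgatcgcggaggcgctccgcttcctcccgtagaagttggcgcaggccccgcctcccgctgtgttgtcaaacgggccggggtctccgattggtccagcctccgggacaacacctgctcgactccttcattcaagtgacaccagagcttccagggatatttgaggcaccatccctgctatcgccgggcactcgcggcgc

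Before the results, 3 facts about the libraries bear on every comparison. The deposited values were normalized and rounded to whole numbers, and summed to between 32024139 and 34858983 per library. These sums follow normalization, so sequencing depth is unknown. The targeted gene, Ern1, had values of 5549, 5164, 4622 and 4500 in WT libraries 1 to 4 and of 7223, 7390, 6922 and 7216 in KO libraries 1 to 4, so its total was higher, not lower, where loss is labelled (log2 difference of 0.54 ± 0.08, SE, adjusted p = 0.00234 by limma-trend). The sources do not name the floxed exons, and the total over the gene can include others, so it is no check of genotype. Directions below rest on the labels. Xbp1, the RNA that IRE1α splices, did not pass over all 8 libraries (log2 difference of -0.30 ± 0.14, adjusted p = 0.168). It was lower in KO within libraries 1 and 2 (-0.48 ± 0.10, adjusted p = 0.00857) and did not pass within libraries 3 and 4 (-0.13 ± 0.10, adjusted p = 0.391), and with the set of libraries in the model it passed (adjusted p = 0.0333). Libraries numbered 1 and 2 stood apart from libraries numbered 3 and 4 in both groups. A sum was taken over 24 immediate early and dissociation genes, the heat shock genes Hspa1a and Hspa1b among them. Most of these genes respond to handling and stimulation of cells within minutes. The sum lay between 12795 and 31496 in libraries 1 and 2 and between 213146 and 403852 in libraries 3 and 4. The labels record no batch, the division was taken from earlier results of these data, and what it represents was not tested. The label differences of the 10 genes are therefore given over all 8 libraries and within these sets.

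Over all 8 libraries, 2 of the 10 genes, Trib3 and Stc2, were higher in libraries labelled KO at an adjusted p under 0.05 (limma-trend on log2(value + 1)), against 11.1% of all 14121 genes tested. None was lower, against 9.81%. At an unadjusted p under 0.05 Nupr1 joined the higher genes, against 18.3% of all genes at that threshold, and still none was lower, against 16.7%. The authors' deposited table called 4 of the genes higher at an FDR under 0.05 (Stc2, Trib3, Ddit3 and Nupr1, against 16.2% of its genes) and 0 lower (against 13.1%). The median log2 difference of the 10 genes was 0.27, and that of all genes tested was -0.00082. In whole islets, fewer cells of a type and less RNA per cell cannot be told apart. Replicate numbers were taken as pairing the libraries across labels, though unlike-numbered libraries of the same set agreed about as well. With the number as a block 4 genes were higher (Trib3, Stc2, Ddit3 and Nupr1, against 14.2% of all genes) and 1, Atf4, lower (against 11.7%). Groups did not overlap for Trib3, Stc2 and Nupr1, with KO above WT, as for 13.6% of all genes, and KO lay below WT for none, against 12.3%. Trib3 and Stc2 passed in all 21 fits made of this comparison. Of all calls 53% were higher in KO as deposited, and 61.5% when values were scaled to library totals.

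**Figure D1:**
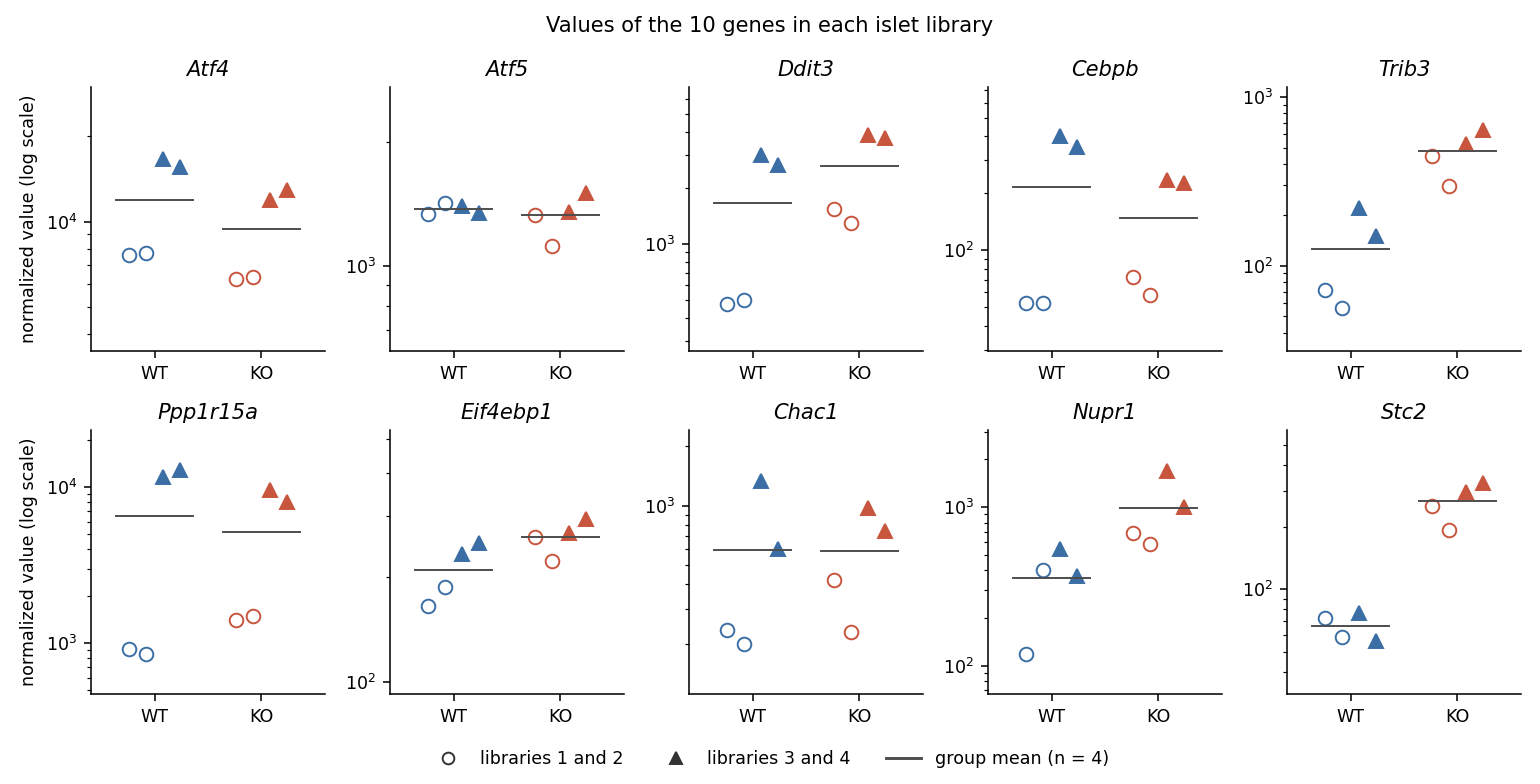
Normalized value (vertical log axis, no fixed unit) of each of the 10 genes in the 4 libraries labelled WT (blue) and the 4 labelled KO (red). Open circles are libraries 1 and 2, filled triangles libraries 3 and 4, and each line is the mean of 4 libraries; Trib3, Nupr1 and Stc2 separate by label, while Ppp1r15a, Cebpb and Atf4 separate by replicate number.

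Atf4 (ENSMUSG00000042406, GRCm38 chromosome 15, 80255184 to 80257541, plus strand) encodes the central factor of the response. Its values were 7595, 7767, 16584 and 15573 in WT libraries 1 to 4 and 6265, 6344, 11956 and 12925 in KO libraries 1 to 4. Libraries 3 and 4 were high in both groups, so the groups overlapped, but within each replicate number the KO library was the lower one, in 4 of 4 pairs. The log2 difference was -0.33 ± 0.35 (SE, adjusted p = 0.547) over all libraries, and the same -0.33 with an SE of 0.07 and an adjusted p = 0.0191 (limma-trend) with the replicate block. Within libraries 1 and 2 the difference was -0.28 ± 0.08 (adjusted p = 0.0330), and within libraries 3 and 4 it was -0.37 ± 0.08 (adjusted p = 0.0163). Atf4 was 2.09-fold higher in libraries 3 and 4 than in 1 and 2 among WT and 1.97-fold among KO libraries.

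Ddit3 (ENSMUSG00000025408, chromosome 10, 127290774 to 127296288, plus strand) encodes CHOP, the factor that links prolonged ER stress to cell death. In libraries 1 and 2 it stood at 477 and 499 in WT against 1543 and 1294 in KO. In libraries 3 and 4 it stood at 3000 and 2644 in WT against 3853 and 3724 in KO. Every KO library thus lay above the WT libraries of its own set, while the KO libraries 1 and 2 lay below the WT libraries 3 and 4. The mean of KO libraries was 2.91 times that of WT within the first of these sets and 1.34 times within the other. On the log2 scale these differences were 1.53 ± 0.11 (adjusted p = 8.07e-05, limma-trend with the spread of all 8 libraries) and 0.43 ± 0.11 (adjusted p = 0.0257). Their difference, -1.11 ± 0.16, had an adjusted p = 0.0513 (interaction term, limma-trend) and did not pass, but did when values were scaled to library totals (adjusted p = 0.0459). Over all libraries the log2 difference was 0.98 ± 0.69 (adjusted p = 0.351), and with the replicate block the adjusted p was 0.0229.

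Cebpb (ENSMUSG00000056501, chromosome 2, 167688915 to 167690418, plus strand) encodes C/EBPβ, a bZIP partner of both ATF4 and CHOP. Its values were 53, 53, 403 and 350 in WT libraries 1 to 4 and 72, 58, 234 and 228 in KO libraries 1 to 4. All libraries numbered 3 and 4 lay above all those numbered 1 and 2, and KO lay below WT in the first of these sets and slightly above it in the other. In libraries 3 and 4 the log2 difference by label was -0.70 ± 0.19 (adjusted p = 0.0316, limma-trend). In libraries 1 and 2 it was 0.28 ± 0.19 (adjusted p = 0.297), and the interaction did not pass (adjusted p = 0.132). The exons of Cebpb share 312 bases, or 20.7% of its exonic length, with Tmem189 on the opposite strand, and without a stated strand setting reads from these cannot be told apart.

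Atf5 (ENSMUSG00000038539, chromosome 7, 44812256 to 44816658, minus strand), a bZIP factor that also acts in the mitochondrial stress response, was the gene of the 10 with the smallest differences by label and by set. It lay between 1335 and 1426 in WT and between 1122 and 1507 in KO libraries, and the groups overlapped. The log2 difference by label was -0.06 ± 0.09 (adjusted p = 0.708, limma-trend), with a 95% interval from -0.27 to 0.16, and that by set was 0.11 ± 0.09 (adjusted p = 0.452). By label neither set passed, with -0.18 ± 0.11 among libraries 1 and 2 and 0.057 ± 0.11 among libraries 3 and 4 (adjusted p = 0.261 and 0.740).

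Trib3 (ENSMUSG00000032715, chromosome 2, 152337422 to 152344032, minus strand) encodes a pseudokinase that is induced by ATF4 and CHOP, binds both AKT and ATF4, and restrains the response. Its values were 72, 56, 220 and 150 in WT libraries 1 to 4 and 443, 297, 525 and 633 in KO libraries 1 to 4. The lowest KO library lay above the highest WT library. The mean rose from 124.5 ± 75.8 to 474.5 ± 141.6 (SD, n = 4 each), a 3.81-fold difference, or 2.08 ± 0.43 on the log2 scale (adjusted p = 0.00948, limma-trend). KO exceeded WT 5.78-fold within libraries 1 and 2 and 3.13-fold within libraries 3 and 4, and both differences passed (adjusted p = 0.00028 and 0.00342), while their difference did not (interaction adjusted p = 0.255). Trib3 was also higher in libraries 3 and 4 with label in the model (1.08 ± 0.22, adjusted p = 0.0106). Of its relatives in the tribbles family, Trib1 separated by set, with values of 790 to 1367 in libraries 1 and 2 and 5283 to 12100 in libraries 3 and 4, and Trib2 did not pass in either comparison (adjusted p = 0.401 by label and 0.759 by set). By label Trib1 had an adjusted p = 0.694, and with the replicate block it was lower in KO (-0.66, adjusted p = 0.0235). Within libraries 3 and 4 Trib2 was higher in KO (0.49 ± 0.12, adjusted p = 0.0197, limma-trend). Within libraries 1 and 2 Trib2 was at -0.14 ± 0.12 (adjusted p = 0.395), and its interaction did not pass (adjusted p = 0.126).

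Ppp1r15a (ENSMUSG00000040435, chromosome 7, 45522916 to 45526268, minus strand) encodes GADD34, which brings protein phosphatase 1 to eIF2α and so ends the translational arrest. In libraries 1 and 2 it stood at 921 and 850 in WT against 1412 and 1500 in KO. In libraries 3 and 4 it stood at 11543 and 12870 in WT against 9528 and 8086 in KO. The order of the labels was thus opposite in the 2 sets, without overlap in either. The KO-to-WT log2 difference was 0.72 ± 0.11 in libraries 1 and 2 (adjusted p = 0.00156, limma-trend) and -0.47 ± 0.11 in libraries 3 and 4 (adjusted p = 0.0152), and the interaction, -1.19 ± 0.15, passed (adjusted p = 0.0270). Leaving out 1 library at a time kept it between -1.31 and -1.07, and it no longer passed without WT library 1, 3 or 4 or KO library 1 or 4 (highest adjusted p = 0.154). Over all libraries the difference was 0.12 ± 1.08 (adjusted p = 0.954). The rise from libraries 1 and 2 to libraries 3 and 4 was 13.8-fold in WT and 6.05-fold in KO. Ppp1r15b, the constitutive counterpart of GADD34, lay between 2465 and 4411 in all 8 libraries and did not pass by label (adjusted p = 0.614). It too was higher in libraries 3 and 4, without overlap between the sets (0.46 ± 0.09, adjusted p = 0.00738; named after its values were seen).

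Eif4ebp1 (ENSMUSG00000031490, chromosome 8, 27260329 to 27276674, plus strand) encodes 4E-BP1, which holds back cap-dependent translation. It lay between 166 and 251 in WT and between 223 and 295 in KO libraries. KO was the higher library in 4 of 4 pairs, but the groups overlapped, and the log2 difference of 0.33 ± 0.16 passed neither over all libraries (adjusted p = 0.176, limma-trend) nor with the replicate block (adjusted p = 0.105). It was 0.45 ± 0.16 within libraries 1 and 2 (adjusted p = 0.0579) and 0.21 ± 0.16 within libraries 3 and 4 (adjusted p = 0.352).

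Chac1 (ENSMUSG00000027313, chromosome 2, 119351229 to 119354381, plus strand) encodes an enzyme that degrades glutathione. Its values were 235, 200, 1335 and 603 in WT libraries 1 to 4 and 422, 228, 967 and 742 in KO libraries 1 to 4. All libraries numbered 3 and 4 lay above all those numbered 1 and 2 (log2 difference of 1.75 ± 0.28, adjusted p = 0.00277, limma-trend), and the labels overlapped. By label the difference was 0.22 ± 0.64 (adjusted p = 0.850), and the means, 593.2 ± 527.0 and 589.8 ± 328.9 (SD, n = 4 each), differed by less than the spread between libraries. The label difference was 0.52 ± 0.37 within libraries 1 and 2 (adjusted p = 0.326) and -0.083 ± 0.37 within libraries 3 and 4 (adjusted p = 0.890).

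Nupr1 (ENSMUSG00000030717, chromosome 7, 126623249 to 126630861, minus strand) encodes a small stress-induced chromatin protein. Its values were 119, 404, 542 and 367 in WT libraries 1 to 4 and 686, 582, 1699 and 1007 in KO libraries 1 to 4. The groups did not overlap, and WT library 1 was the lowest by far. The log2 difference of 1.54 ± 0.48 had an adjusted p = 0.0523 (limma-trend) and missed the threshold, and with the replicate block the adjusted p was 0.0111. Within libraries 1 and 2 it was 1.52 ± 0.48 (adjusted p = 0.0422), with the spread of all 8 libraries. Within libraries 3 and 4 it was 1.55 ± 0.48 (adjusted p = 0.04998). These estimates lay close together, but the pairs did not. KO was 5.76 and 1.44 times WT in pairs 1 and 2, and 3.13 and 2.74 times in pairs 3 and 4. The difference between the 2 estimates was imprecise, at 0.03 ± 0.68 (interaction term). Leaving out 1 library at a time gave a label difference of 1.07 to 1.799, which passed only without WT library 3 (adjusted p = 0.0421).

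Stc2 (ENSMUSG00000020303, chromosome 11, 31357307 to 31370074, minus strand) encodes stanniocalcin 2, a secreted glycoprotein induced by ATF4 that inhibits the protease PAPP-A. Its values were 73, 59, 77 and 56 in WT libraries 1 to 4 and 253, 193, 297 and 327 in KO libraries 1 to 4. Each KO library was at least 3.27 times the WT library of the same number, and the groups lay far apart. The mean rose from 66.3 ± 10.3 to 267.5 ± 58.2 (SD, n = 4 each), a 4.04-fold difference, or 1.98 ± 0.20 on the log2 scale (adjusted p = 0.000356, limma-trend). The label difference passed in both sets, at 1.74 ± 0.23 among libraries 1 and 2 (adjusted p = 0.000988) and 2.23 ± 0.23 among libraries 3 and 4 (adjusted p = 0.000582). Libraries 3 and 4 did not pass against 1 and 2 (0.25 ± 0.18, adjusted p = 0.404), and the interaction did not pass (adjusted p = 0.437).

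**Figure D2:**
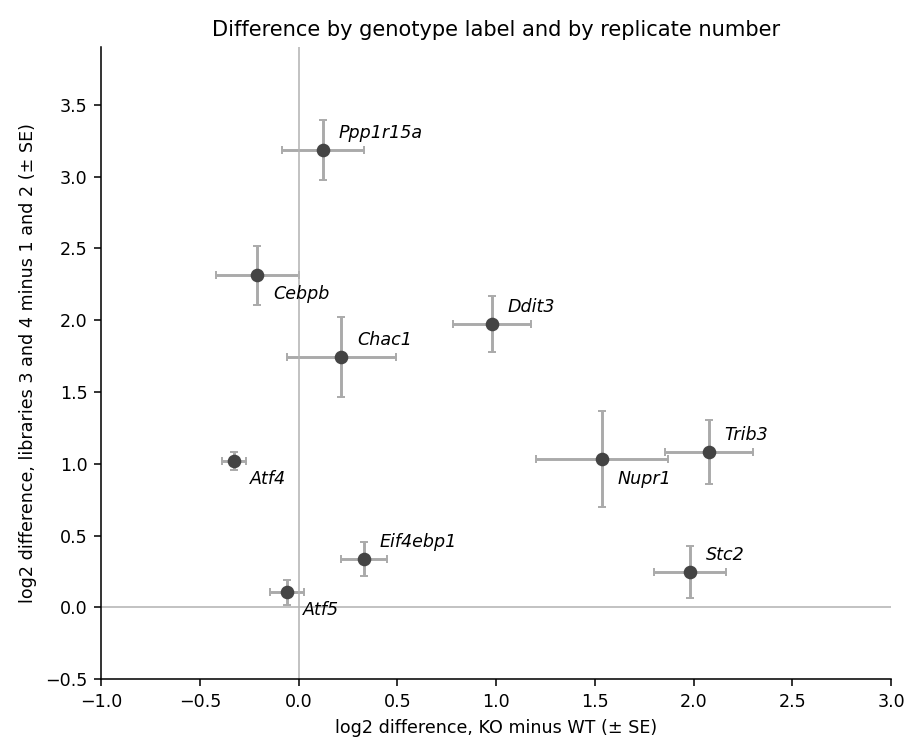
Log2 difference KO minus WT (horizontal axis) against the log2 difference of libraries 3 and 4 minus 1 and 2 (vertical axis) for the 10 genes, both from 1 model with label and set as terms; bars are SE over 8 libraries. Stc2, Trib3 and Nupr1 lie to the right, Ppp1r15a, Cebpb and Chac1 lie high near 0 on the horizontal axis, and Ddit3 lies between them.

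The 10 genes differed in how much of their variance each of the 2 divisions of the libraries, by label or by set of replicate numbers, held. The set of replicate numbers held 96.3% of the variance of log2 values for Ppp1r15a, 94.4% for Cebpb, 90.1% for Atf4, 81.1% for Chac1 and 75.1% for Ddit3. The label held 94.3% for Stc2, 73.5% for Trib3 and 53.2% for Nupr1. For Eif4ebp1 the set held 42.9% and the label 41.3%. For Atf5 the set held 21.9% and the label 6.61%, so most of its variance lay in neither. Libraries 3 and 4 were higher than 1 and 2 for 6 of the 10 genes with label in the model (Atf4, Ddit3, Cebpb, Trib3, Ppp1r15a and Chac1), against 9.38% of all genes, and lower for 0, against 6.06%. For 5 genes, all of these but Trib3, the sets did not overlap, as for 7.91% of all genes, and none had libraries 3 and 4 below, against 7.07%. Within WT libraries alone the same 6 genes were higher in libraries 3 and 4 (against 11% of all genes) and 0 lower (against 7.87%). Within KO libraries 5 were higher, again all but Trib3 (against 4.97%), and 0 lower (against 2.8%). The median log2 difference between sets was 1.06 over the 10 genes and -0.02 over all genes tested. Since the division was chosen with these data known, these values describe it and are not independent evidence for it. Immediate early and dissociation genes moved with it (22 of 24 higher, all but Hspa1a and Hspa1b, median log2 difference of 3.60). Their part in the results for the 10 genes was not tested.

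With the set as a term beside label, 4 genes were higher in KO (Trib3, Stc2, Ddit3 and Nupr1, against 17% of all genes) and 1, Atf4, was lower (against 14.9%). Within libraries 1 and 2, with the spread taken from all 8 libraries, 5 of the 10 genes were higher in KO (Trib3, Stc2, Ddit3, Nupr1 and Ppp1r15a, against 15.5% of all genes) and 1, Atf4, was lower (against 13.6%). Within libraries 3 and 4, 4 were higher (Trib3, Stc2, Ddit3 and Nupr1, against 9.68%) and 3 lower (Atf4, Cebpb and Ppp1r15a, against 11%). Each of these fits has 2 libraries per label and set. The interaction, which tests whether the label difference itself differed between the sets, passed for 1 of the 10 genes, Ppp1r15a, in the negative direction, against 0.0921% of all genes, and for 0 in the positive direction, against 0.00708%. At an unadjusted p under 0.05, it also held for Ddit3, Cebpb and Trib3, all in the negative direction, against 11.2% of all genes, and for 0 in the positive direction, against 7.57%.

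**Figure D3:**
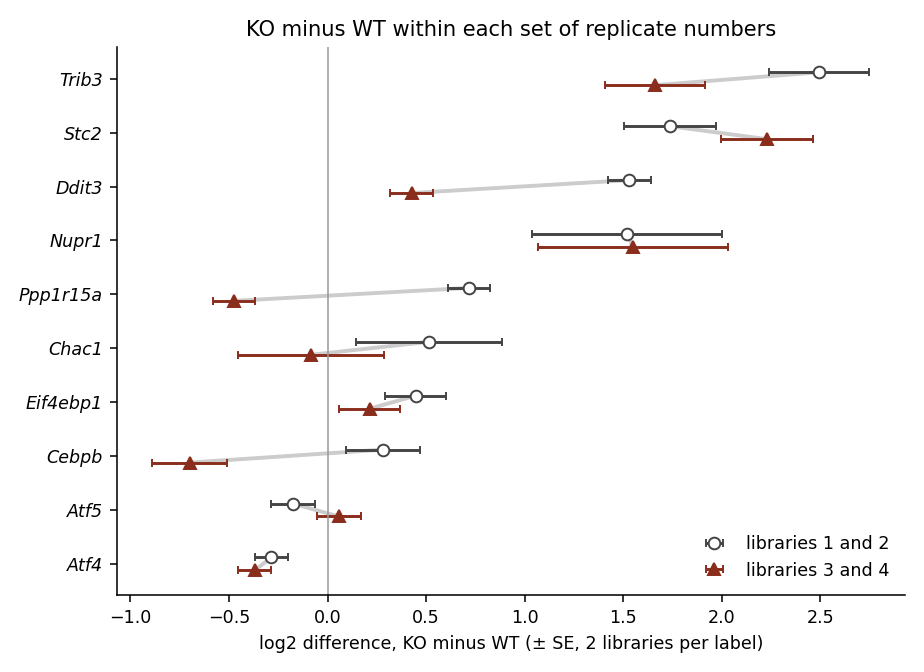
Log2 difference KO minus WT of the 10 genes (horizontal axis) within libraries 1 and 2 (open circles) and within libraries 3 and 4 (red triangles), with SE bars and 2 libraries per label in each set. Ppp1r15a goes from 0.72 to -0.47, Ddit3 from 1.53 to 0.43, while Nupr1 and Atf4 keep nearly the same value.

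Ratios between 2 genes in the same library do not depend on how that library was scaled. Trib3 per unit of Atf4 was 0.00721 to 0.0133 in WT and 0.0439 to 0.0707 in KO libraries, and Stc2 per unit of Atf4 was 0.0036 to 0.00961 and 0.0248 to 0.0404. Neither ratio overlapped between labels. Ddit3 per unit of Atf4 was 0.0628, 0.0642, 0.181 and 0.170 in WT libraries 1 to 4 and 0.246, 0.204, 0.322 and 0.288 in KO libraries 1 to 4, so here, unlike for Ddit3 alone, every KO library lay above every WT library. Trib3 per unit of Ddit3 was 0.0567 to 0.151 in WT and 0.136 to 0.287 in KO libraries, which overlapped. These ratios were chosen after the values were seen and carry no test.

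Levels between genes were compared per kilobase of annotated exon (GENCODE M21, all transcripts). In WT libraries Atf4 had the highest mean, 5038 per kilobase (range 3221 to 7033), followed by Ppp1r15a at 2229 (289 to 4382), Ddit3 at 966 (279 to 1751) and Atf5 at 690 (670 to 716). The range of each of these overlapped that of the next, but within every WT library Atf4 lay above the others. The order of Ppp1r15a, Ddit3 and Atf5 is not firm. Chac1 stood at 362 (122 to 816), Cebpb at 143 (35.2 to 268), Nupr1 at 142 (47.3 to 216) and Eif4ebp1 at 95.5 (75.6 to 114), each overlapping the next. Trib3, at 58.6 (26.4 to 104), overlapped Eif4ebp1, and Stc2, at 12.8 (10.8 to 14.9), lay below all others. In KO libraries Trib3 stood at 223 (140 to 298), above Eif4ebp1 at 119 (102 to 134) without overlap. Stc2, at 51.7 (37.3 to 63.2), had the lowest mean there too, in a range that overlapped that of Cebpb (38.6 to 156).

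The rest of the pathway was read from gene lists by role, each count by label over all libraries standing beside 11.1% of all genes higher and 9.81% lower. Among the eIF2α kinases and their regulators, 0 of 10 measured genes passed in either direction (median log2 difference -0.09). Eif2ak3, encoding PERK, lay between 2259 and 2868 in WT and between 2217 and 2678 in KO libraries (adjusted p = 0.532, limma-trend; named after its values were seen). Dnajc3, an ER co-chaperone that inhibits these kinases, had a log2 difference of -0.13 ± 0.12 (adjusted p = 0.510), and Impact, a regulator of GCN2, one of -0.07 ± 0.13 (adjusted p = 0.733). Over all 8 libraries the kinase list also held no gene at an unadjusted p under 0.05. Between sets 1 of its genes was higher in libraries 3 and 4 and 2 lower (against 9.38% and 6.06% of all genes). Of the lower ones, Eif2ak2 encodes the kinase that senses double-stranded RNA (named after its values were seen). Its label difference was 0.56 ± 0.12 within libraries 3 and 4 (adjusted p = 0.0143, limma-trend) and 0.03 ± 0.12 within libraries 1 and 2 (adjusted p = 0.863).

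Of 17 measured genes for eIF2, its exchange factor eIF2B and the eIF2α phosphatase, 1 was higher and 1 lower, with a median of 0.01. Eif2a, encoding an alternative initiation factor, was higher by 0.28 ± 0.08 (adjusted p = 0.0371, limma-trend), and Eif2b4, encoding a subunit of eIF2B, was lower by -0.28 ± 0.08 (adjusted p = 0.0461). Neither passed with the replicate block (adjusted p = 0.0545 and 0.0536), which called 0 genes of the list higher and 2 lower (against 14.2% and 11.7% of all genes). Eif2b4 also lost its call whichever library was left out (highest adjusted p = 0.125), and Eif2a without WT library 2 or 3 or KO library 1, 3 or 4 (0.103).

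Among bZIP partners of ATF4 and CHOP, 1 of 17 was higher in KO and 0 lower (median 0.13). In libraries 3 and 4, 9 were higher and 0 lower (against 9.38% and 6.06% of all genes). The gene higher in KO was Creb3l3, encoding an ER-bound factor, with values of 9, 13, 19 and 15 in WT and 24, 39, 73 and 42 in KO libraries (1.54 ± 0.42, adjusted p = 0.0303, limma-trend). Its call ended without WT library 1 or 2 or KO library 2, 3 or 4 (highest adjusted p = 0.0921). Atf3, a stress-induced partner of CHOP, had values of 46, 31, 20348 and 14259 in WT and 256, 105, 18716 and 17328 in KO libraries, a log2 difference of 7.77 ± 0.41 between sets (named after its values were seen). It therefore showed the split by set seen in Ppp1r15a, on a wider scale.

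A mixed list of ATF4 and CHOP targets, growth and secreted factors among them, had the highest median of the pathway lists, 0.61. Of its 13 measured genes, 4 were higher in KO and 0 lower. Adm2, encoding the peptide adrenomedullin 2, was listed at 0, 3, 5 and 2 in WT and at 57, 59, 54 and 77 in KO libraries (adjusted p = 0.00157, limma-trend). Slc7a11, encoding the cystine transporter that supplies glutathione synthesis, was at 7, 12, 32 and 13 in WT and at 58, 43, 88 and 77 in KO libraries (2.14 ± 0.46, adjusted p = 0.0120). Sesn2, encoding sestrin 2, an inhibitor of mTORC1, was higher by 0.84 ± 0.15 (adjusted p = 0.00538), and Kdm7a, encoding a histone demethylase, by 0.61 ± 0.08 (adjusted p = 0.00108). In each of these 4 genes, named because they passed, every KO library lay above every WT library, as for 13.6% of all genes. Gdf15, a secreted stress factor, missed the threshold with values of 4, 0, 18 and 10 against 47, 26, 47 and 32 (adjusted p = 0.0521; the replicate block gave 0.0239; chosen after its values were seen). Ddit4, another inhibitor of mTORC1, went the other way, with 573, 614, 1826 and 2532 in WT and 273, 353, 713 and 749 in KO libraries (-1.24 ± 0.54, adjusted p = 0.134; the replicate block gave 0.00325; chosen after its values were seen).

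Among cell death genes linked to CHOP and ATF4, 2 of 12 were higher in KO and 0 lower (median 0.25). Casp12, encoding an ER-associated caspase, was higher by 1.30 ± 0.36 (adjusted p = 0.0331, limma-trend), with a KO range of 116 to 387 in which KO library 1 was the highest. Bcl2, encoding an inhibitor of cell death that CHOP is known to repress, was at 190, 197, 291 and 346 in WT and at 544, 405, 534 and 472 in KO libraries (0.97 ± 0.21, adjusted p = 0.0113). Txnip (named after its values were seen) missed the threshold over all libraries (1.27 ± 0.48, adjusted p = 0.0923, limma-trend). Within libraries 1 and 2 it was higher in KO by 2.24 ± 0.16 (adjusted p = 7.3e-05). Within libraries 3 and 4 it did not pass (0.29 ± 0.16, adjusted p = 0.216). Its interaction passed (-1.95 ± 0.22, adjusted p = 0.0182), against 0.0921% of all genes in that direction. With the set as a term 4 genes of the list were higher (against 17%). Among autophagy targets, 2 of 15 were higher and 3 lower (median -0.08). Wipi1, encoding a protein of the early autophagosome, was higher by 0.58 ± 0.08 (adjusted p = 0.00204) and Atg3 by 0.34 ± 0.10 (adjusted p = 0.0380). Gabarapl2 (-0.46 ± 0.14, adjusted p = 0.0426) and Map1lc3b (-0.44 ± 0.12, adjusted p = 0.0353), which encode proteins of the autophagosome membrane, were lower, as was Atg5 (-0.34 ± 0.10, adjusted p = 0.0366; the replicate block gave 0.0528; named to complete the count). With the block 3 genes of this list were higher and 2 lower (against 14.2% and 11.7% of all genes). Several of these calls ended when 1 library was left out: Casp12 without WT library 1, 2 or 3 or KO library 3 or 4 (highest adjusted p = 0.0833), and Atg3 without WT library 2 or 3 or KO library 1, 3 or 4 (0.102). Gabarapl2 was lost without any library but WT library 4 (0.104), and Map1lc3b without any but WT library 4 or KO library 3 (0.0914). Both also missed the threshold when scaled to library totals.

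Among relatives of Eif4ebp1 in the 4E-BP and mTORC1 group, 0 of 11 were higher and 1 lower (median -0.07), the last being Tsc1, an inhibitor of mTORC1 (-0.41 ± 0.09, adjusted p = 0.0161, limma-trend), whose call ended with totals free of hormone and mitochondrially encoded genes. Among glutathione and stanniocalcin genes related to Chac1 and Stc2, 2 of 9 were higher and 0 lower (median 0.33). Pappa2, encoding a protease that cleaves insulin-like growth factor binding proteins, was at 10728, 13139, 9275 and 12950 in WT and at 85494, 60609, 50235 and 53263 in KO libraries (2.42 ± 0.18, adjusted p = 9.69e-05). Gclc, encoding the catalytic subunit of the first enzyme of glutathione synthesis, was higher by 0.62 ± 0.08 (adjusted p = 0.000853). Both, named because they passed, separated fully by label with KO above WT, as did 13.6% of all genes. Stc1, the paralogue of Stc2, was at 206, 191, 702 and 816 in WT and at 389, 324, 1144 and 1133 in KO libraries, higher in every pair and in libraries 3 and 4 (adjusted p = 0.448; the replicate block gave 0.00497; chosen after its values were seen). With the block, 4 genes of this list were higher, and among the bZIP partners 2 were higher and 1 lower (against 14.2% and 11.7% of all genes).

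**Figure D4:**
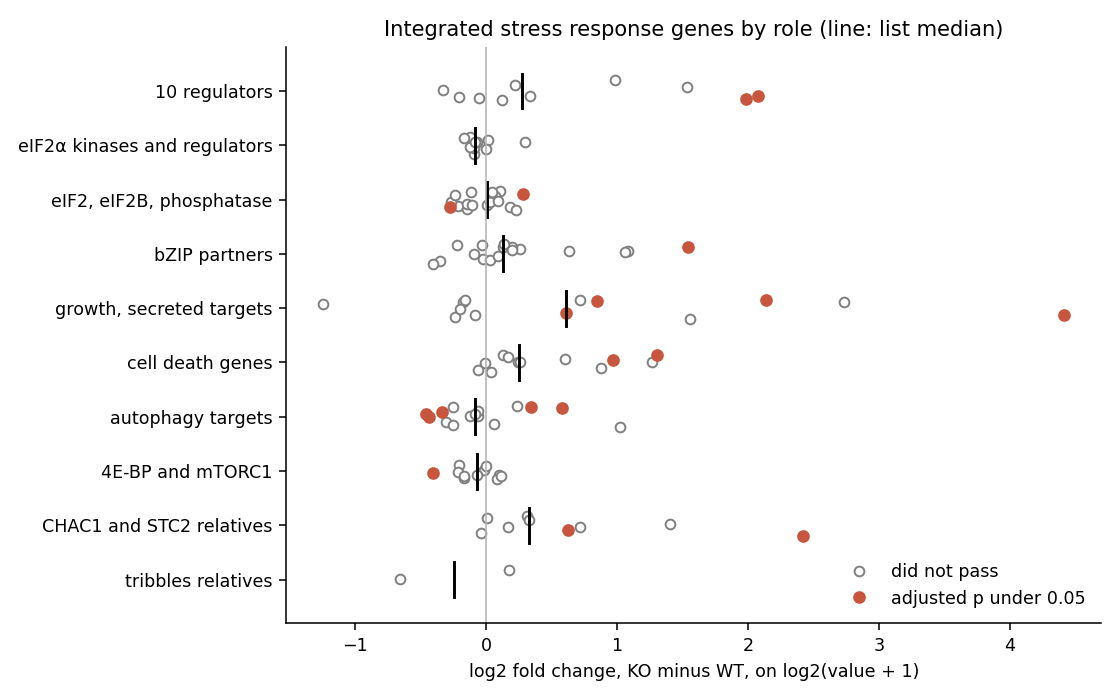
Log2 difference KO minus WT (horizontal axis, on log2(value + 1)) of each measured gene in the 10 regulators and the 9 pathway lists; red points passed at an adjusted p under 0.05 (limma-trend), open points did not, and black lines are list medians. The list labelled growth, secreted targets, which also holds other ATF4 and CHOP targets, has the highest median, 0.61. The kinase list has no gene that passed.

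Markers of beta, alpha, delta and PP cells moved with the label. Counts by label over all libraries stand here beside 11.1% of all genes higher and 9.81% lower. Beta cell markers were lower in KO for 9 of 12 genes and higher for 0, with sums of 5380950 to 6023141 in WT and 2549934 to 3498693 in KO libraries. Alpha cell markers were higher for 7 of 10 and lower for 1 (sums of 422929 to 1060864 against 1938027 to 2642897), and delta and PP cell markers were higher for 7 of 7 (103897 to 170781 against 277909 to 392073). Acinar markers, of the enzyme-secreting exocrine pancreas, were higher for 2 of 19, or 6 with the replicate block (against 14.2% of all genes). Their sums of 33111 to 398210 in WT and 208165 to 616177 in KO libraries overlapped. Ductal markers were higher for 4 of 11 (16027 to 29295 against 25927 to 49141) and macrophage markers for 1 of 13 (2261 to 4508 against 3381 to 4332). Of 5 measured T and B cell markers 1 was lower (335 to 989 against 344 to 507). Of 13 stellate and endothelial markers 0 passed (20989 to 29242 against 28426 to 46811), or 7 higher with the replicate block (against 14.2% of all genes). Between sets, 7 of the macrophage markers, 9 of the stellate and endothelial markers and 2 of the acinar markers were higher in libraries 3 and 4 (against 9.38% of all genes). No measured marker of these lists was at 0 in all libraries of a group. The genes tested did not include 6 T and B cell markers, Cd3e among them, and 2 acinar markers. They also lacked 1 marker each of the alpha, the delta and PP, and the macrophage lists. The part of these shifts in the values of Trib3, Stc2, Nupr1 and the other regulators was not tested.

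The genes whose pattern over the 8 libraries was most like that of Ddit3, among 13085 genes with a mean value of at least 50, were Nefl, Klf10, Clec7a, Dusp8 and Inhbb, with Pearson r between 0.9932 and 0.9982 on log2(value + 1). The libraries share the 2 divisions described above, so the r is a description. Klf10, encoding a transcription factor of early growth responses, was at 573, 609, 3442 and 2990 in WT and at 1763, 1375, 4965 and 3823 in KO libraries. Dusp8, encoding a phosphatase of stress-activated kinases, was at 326, 318, 2103 and 2033 against 992, 771, 2533 and 2116, and Inhbb, encoding an activin subunit, at 83, 82, 427 and 431 against 234, 177, 687 and 648. None of these 5 passed by label (adjusted p of 0.331 to 0.472, limma-trend), and each passed between sets.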

How the data were processed

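Islet RNA from 4 libraries labelled WT and 4 labelled KO was analysed, and the series' design text gives 4 mice per group. Per the submitters' processing notes, reads were handled with edgeR 3.16.15, RSEM 1.2.31, STAR 2.5.3a and bcl2fastq 2.20 on build GRCm38.p5, with no role, setting or strandedness given in these sources. The deposited per-library values are whole numbers, read here as normalized counts rounded by the authors and treated as a score with no fixed unit, since their median-of-ratios factors lay between 0.994 and 1.01. The same deposited table gives the authors' log2 fold change, log2 CPM, likelihood ratio score, p-value and FDR. No library was a copy of another (0 identical pairs).

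Values were tested with limma-trend (limma 3.58.1, R 4.3.3) on log2(value + 1), over the 14121 genes that reached 1 in 4 or more libraries. P-values were adjusted over all of these (Benjamini-Hochberg), with a threshold of 0.05. All 10 genes passed this filter. Log2 differences use log2(value + 1), so they understate changes of low genes, while fold values are ratios of means. Errors are limma's moderated SE. Normalized values allow no count test, and with depth unknown no counting interval was computed. Same-numbered WT and KO libraries deviated together from their group means (r of 0.327, 0.583, 0.664 and 0.381 across 13081 genes with a mean over 50, and genes are not replicates). All 4 exceeded 0.1, and the numbers were taken as pairing the libraries, a reading that comes from the data and not from the labels. Unlike-numbered libraries of the same set deviated together about as much. Their r was 0.433 for WT2 and KO1, 0.454 for WT1 and KO2, 0.516 for WT4 and KO3 and 0.466 for WT3 and KO4. These r values therefore do not show pairing by number apart from the sets.

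The genes and lists were chosen with earlier results of these data known. Named genes are the 10 regulators, Ern1 and Xbp1, per list the passing genes that changed most (up to 4) or, where none passed, the 2 most abundant, and the 5 genes most like Ddit3. Others are marked as chosen later. Coordinates and exons are from GENCODE M21 (14114 gene IDs matched), and promoter sequences from RefSeq on GRCm38.p6. Exons of Atf5, Ddit3 and Ppp1r15a overlap other genes on the opposite strand by 12 to 82 bases. Ddit3 also shares 105 exonic bases, or 6.13% of its exonic length, with another protein-coding entry named Ddit3 on the same strand. That entry is not among the deposited genes. Alternatives covered the pseudocount, filter, scaling, moderation, replicate block, sets, leaving out each library and the authors' deposited calls.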

Additional observations from a re-analysis of the deposited data

Results flagged for a closer look

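Ppp1r15a, encoding the eIF2α phosphatase subunit GADD34, is listed here because the KO-to-WT difference was not the same in both sets of replicate numbers, changing by -1.191 ± 0.15 on the log2 scale (SE, adjusted p = 0.0270, interaction term, limma-trend). KO was above WT in 2 of 2 pairs among libraries 1 and 2 and below WT in 2 of 2 pairs among libraries 3 and 4. Without WT library 1, 3 or 4, or KO library 1 or 4, the interaction no longer passed (adjusted p of 0.0513 to 0.154). In the 20 groups of 4 libraries that the 10 genes form, none held a library far enough from the others to exceed Dixon's 95% critical value.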

How the results depend on the processing

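Trib3 and Stc2 kept their direction and passed in 21 of 21 limma-trend fits (highest adjusted p = 0.0311 and 0.00568), with log2 differences of 1.66 to 2.495 and 1.74 to 2.23. Against 2 genes of the 10 higher and 0 lower over all libraries, 4 were higher and 1 lower with the replicate block and with the set of libraries in the model. In libraries 1 and 2 fitted alone 4 were higher, where 1740 of all 14118 genes tested were higher and 1540 lower. With the spread pooled over both sets, as given above, 5 were higher and 1 lower in these libraries. In libraries 3 and 4 fitted alone 4 were higher and 3 lower, against 1600 and 1604 of all 14122 genes tested. The authors' deposited calls had 4 higher. The block changed the call of Atf4, Ddit3 and Nupr1 and of no other of the 10 genes. Over all genes, 1562 higher and 1385 lower became 2400 and 2102 with the set as a term, and 1121 to 1684 higher and 863 to 1599 lower when 1 library was left out (863 without WT library 2, 909 without KO library 4). With totals free of 7 hormone genes and of mitochondrially encoded genes, 63.2% of calls were higher instead of 53%. The interaction was negative and passing for 1 gene, and for 2 (Ppp1r15a and Ddit3) when scaled to library totals, to totals without hormone and mitochondrially encoded genes or by the median of ratios, and with robust moderation. It was 0 to 2 when 1 library was left out. The cause of these changes was not tested.

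Differences that did not pass over all 8 libraries changed sign as follows. In libraries 1 and 2 alone, Cebpb was at 0.28, Trib2 at -0.14, Fos at 0.97 and Btg2 at 0.16. In libraries 3 and 4 alone, Atf5 was at 0.057, Ppp1r15a at -0.47, Chac1 at -0.083, Dnajc3 at 0.12 and Impact at 0.059. With 1 library left out, the ranges were -0.53 to 0.78 for Ppp1r15a, -0.16 to 0.75 for Chac1, -0.68 to 0.29 for Cebpb, -0.12 to 0.019 for Atf5, -0.15 to 0.0047 for Impact, -1.04 to 0.75 for Fos and -0.96 to 0.37 for Btg2. The interaction of Nupr1 ranged from -0.85 to 0.91, and the set difference of Atf5 in WT libraries alone was -0.0089.

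Precision rests on the spread between 4 libraries per label, or 2 within a set. Depth is unknown.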
